A study of Homo sapiens with 6 samples.

Results

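The genes described here encode enzymes of the route from acetyl-CoA to squalene by way of mevalonate, together with the enzyme that oxidises squalene. They do not cover every step of that route. They are ACAT2, HMGCS1, MVK, PMVK, MVD, IDI1, FDPS, FDFT1 and SQLE. They were taken by gene symbol from the 23555 gene rows of the deposited table, each of the 9 had 1 row, and all 9 passed the filter on low values that 13836 rows passed. RNA was sequenced from IMR-32, an established line of human neuroblastoma in which MYCN is amplified. Cells received 25 nM PTC-028 (3 libraries) or the solvent DMSO (3 libraries) for 24 h. The cells of both groups are labelled as wild type, grew in the same medium with serum and had been seeded a day before treatment. The compound PTC-028 serves as an inhibitor of BMI1, which belongs to Polycomb repressive complex 1. All 6 libraries come from this line alone. The labels do not say whether the libraries of a group came from separate cultures, and the spread behind the p-values may therefore be technical.

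In the mevalonate pathway, acetyl-CoA units are joined and reduced to mevalonate, which is phosphorylated and decarboxylated to isoprene units that are assembled into farnesyl diphosphate. Farnesyl diphosphate either goes to squalene and cholesterol or feeds the isoprenoid branches, which supply dolichol, ubiquinone and the lipid anchors of small GTPases. Most genes of the pathway are known targets of the transcription factor SREBP-2, which is released from the endoplasmic reticulum when its sterols run low. Dividing cells need the pathway for new membrane, and cells of the nervous system make most of their own cholesterol.

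TPM, the unit of the table, is a length-normalised relative abundance that sums to a fixed total in each library. The 6 columns summed to between 999990 and 999999, and between 13580 and 14003 genes reached a TPM of 1. The number of reads cannot be recovered from TPM, and depth is unknown. All 10 neuroblastoma markers had a mean TPM of at least 1, with summed levels of 3137 to 3206 TPM in the PTC-028 libraries and 2858 to 2976 TPM in the DMSO libraries. Summed markers of fibroblasts lay between 21.0 and 25.9 TPM in PTC-028 and between 21.7 and 24.8 TPM in DMSO, nearly all of it COL1A1 and PDGFRB. Leukocyte markers, of which 4 of 5 had a row, summed to 4.91 to 6.54 TPM in PTC-028 and 3.41 to 5.73 TPM in DMSO, mostly PTPRC. The 4 endothelial markers summed to 0.856 to 1.70 TPM in PTC-028 and 0.619 to 0.902 TPM in DMSO. CDKN1A, the p53 target that encodes p21, was at 286, 315 and 280 TPM in PTC-028 and at 79.0, 77.2 and 79.8 TPM in DMSO, a rise of 1.89 on the log2 scale (limma adjusted p = 1.4e-05).

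Of the 9 pathway genes, ACAT2 was the 1 that fell past the threshold, none rose, and 8 did not pass. Of all 13836 genes tested, 1.88% were called, 1.01% lower and 0.867% higher, by limma on log2(TPM + 1) at a Benjamini-Hochberg adjusted p under 0.05. In 5 genes, ACAT2, IDI1, FDPS, FDFT1 and SQLE, every PTC-028 library lay below every DMSO library. That is 55.6% of the 9, against 10.6% of all genes tested with the same separation in that direction. The 9 were chosen with earlier results of these data known, so such shares describe the list and do not test it. The log2 fold changes of the 9 ran from -0.45 to 0.003, with 8 of 9 below 0 against 42.5% of all genes tested. Their median was -0.13, while the median over all genes tested was 0.03. With any 1 library left out, the median of the 9 lay between -0.24 and -0.11. It was -0.24 without PTC-028 replicate 1, -0.19 without DMSO replicate 2 and -0.11 without PTC-028 replicate 3. These are relative levels in bulk RNA, in which fewer cells of a type and less RNA per cell cannot be told apart.

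Promoter letters are shown because several of these genes share them outside their expression. RefSeq promoter windows (GRCh38.p14, 250 bases before to 50 after the start) were matched by symbol for 6 of the 9 genes: HMGCS1, MVK, PMVK, MVD, IDI1 and FDPS. Where a gene had several windows, the one with its start nearest to the GENCODE 29 gene start was read. The CCAAT box, the letters bound by NF-Y, which acts with SREBP at sterol-regulated promoters, was searched as CCAAT on both strands. It was present in 5 of the 6 windows, against 34.6% of 35116 windows in the table. Those windows can be several per gene and were not limited to the genes tested, for which no share was counted. The copy nearest to the RefSeq start in each is given below in 30 bases on the strand of the gene. The box is in capitals, read as ATTGG where it lies on the opposite strand. Bases before the start count from the RefSeq start. By the GENCODE 29 gene models, the boxes shown for MVK and FDPS lie inside the gene, and that of HMGCS1 at its edge.
HMGCS1 (chr5:43313495-43313524, minus strand, box 100 bases before the start): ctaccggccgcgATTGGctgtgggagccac
MVK (chr12:109573736-109573765, plus strand, 46 bases before): tcgcgcgctctgATTGGctggcctgaagta
MVD (chr16:88663159-88663188, minus strand, 85 bases before): ggctcgcacgggCCAATcctgtggtagcgc
IDI1 (chr10:1049219-1049248, minus strand, 117 bases before): atcgaaagcgtgATTGGctggcggcgtctg
FDPS (chr1:155308803-155308832, plus strand, 51 bases before): tcccgcgggcacATTGGgagttgtagtcta

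The number of CCAAT boxes was 5 in MVK, 3 in MVD, 3 in FDPS, 2 in HMGCS1 and 2 in IDI1, and 0 in PMVK. Boxes were in the windows of FDPS and IDI1, whose libraries separated by treatment, and of HMGCS1, MVK and MVD, whose groups overlapped. The groups of PMVK, which had no box, overlapped as well. ACAT2, FDFT1 and SQLE had no window, and any link between boxes and treatment was not tested. The GC box bound by Sp1, searched as GGGCGG on both strands, was in 6 of 6 windows and in 45.0% of all windows. The core of the sterol regulatory element, searched as TCACNCCAC on both strands, was in 0 of 6 windows and 1.13% of all, and the E-box CACGTG was in 0 of 6 and 7.26% of all. Such matches are letters in a window and not measured binding.

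Because TPM is divided by gene length, levels can be ordered between genes. FDPS was the most abundant of the 9, with a mean of 287 TPM over the 6 libraries, above 96.8% of the genes tested. Below it the order differed between the groups. In PTC-028, SQLE at a mean of 114 TPM and HMGCS1 at 108 TPM came next with overlapping libraries, and ACAT2 at 93.1 TPM lay below every library of both. In DMSO, ACAT2 had the highest mean of these 3 at 127 TPM, ahead of SQLE at 124 TPM and HMGCS1 at 117 TPM, and the libraries of neighbours in that order overlapped. FDFT1 and IDI1 followed in both groups, at 73.1 and 63.7 TPM with overlap in PTC-028, and at 83.6 and 76.8 TPM without overlap in DMSO. The kinases and the decarboxylase of the middle of the pathway were lowest in both groups, in the order PMVK, MVD, MVK. PMVK averaged 35.5 TPM in PTC-028 and 38.7 TPM in DMSO, and MVD averaged 26.7 TPM in PTC-028 and 27.3 TPM in DMSO. The libraries of PMVK and MVD overlapped in PTC-028 and not in DMSO, while those of MVD and MVK overlapped in both groups. The 9 genes together summed to 822, 797 and 774 TPM in the PTC-028 libraries and to 917, 917 and 948 TPM in the DMSO libraries. FDPS alone made up 32.7% to 33.4% of that sum in PTC-028 and 32.3% to 35.1% in DMSO. The summed level in PTC-028 was 86.0% of that in DMSO, with no overlap between the groups.

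**Figure D1:**
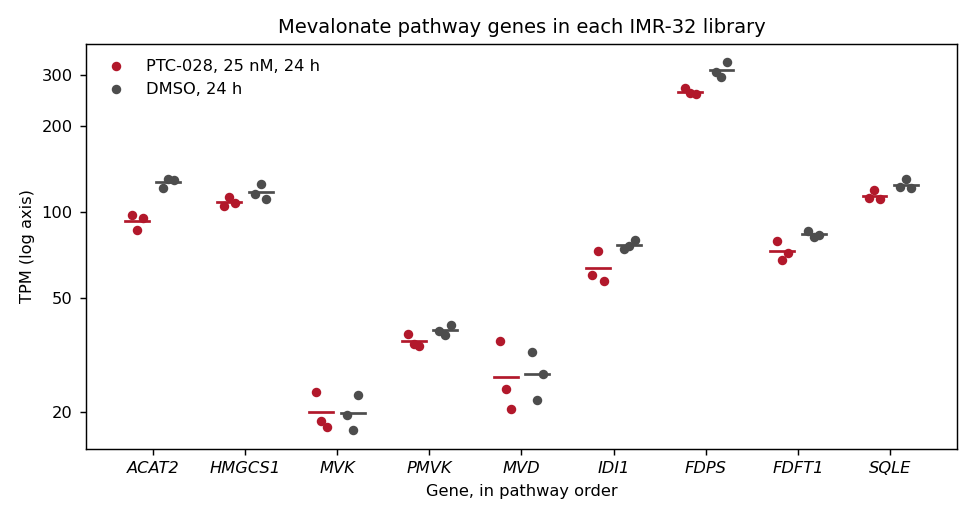
TPM (log axis) of the 9 pathway genes in pathway order, with the 3 PTC-028 libraries in red on the left and the 3 DMSO libraries in grey on the right of each gene; points are libraries and lines are group means. The groups are apart for ACAT2, IDI1, FDPS, FDFT1 and SQLE, and overlap for HMGCS1, MVK, PMVK and MVD.

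The pathway opens with ACAT2, the cytosolic thiolase that joins acetyl-CoA units into acetoacetyl-CoA. ACAT2 (chromosome 6, 159760328 to 159779055, GRCh38) had 97.8, 86.4 and 95.1 TPM in the PTC-028 libraries and 122, 131 and 130 TPM in the DMSO libraries. All PTC-028 libraries were lower, and the gap between the groups was wider than the spread within either. The mean fell to 93.1 ± 5.96 TPM in PTC-028, against 127 ± 5.11 TPM in DMSO (SD, n = 3 each), which is 73.1% of the DMSO level. The log2 fold change was -0.45 ± 0.06 (SE; limma adjusted p = 0.0147; 95% confidence interval -0.60 to -0.30). By p, ACAT2 was in place 102 among all genes tested, and 268 genes had a lower log2 fold change. The call was lost without DMSO replicate 1 (limma adjusted p = 0.0539), PTC-028 replicate 2 (0.0615) or PTC-028 replicate 3 (0.0600), and with eBayes without a mean-variance trend (0.0685). The fold change itself stayed between -0.49 and -0.40 with any 1 library left out.

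ACAT2 shares sequence with neighbours, so its reads may not all be its own. Its 3′ end overlaps that of TCP1, a subunit of the chaperonin that folds actin and tubulin, on the opposite strand over 558 bases, 397 of them exonic in both. TCP1 was at 590, 576 and 553 TPM in PTC-028 and at 582, 594 and 551 TPM in DMSO. Its groups overlapped, and it did not pass (log2 fold change -0.01; limma adjusted p = 0.946). At the 5′ end an extended model of SOD2, which encodes a mitochondrial superoxide dismutase, overlaps ACAT2 over 1141 exonic bases, and its row lay between 0.152 and 0.430 TPM in the 6 libraries. Whether the counting used strand is not given in the sources used here, and the part of these overlaps in the ACAT2 values was not tested.

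ACAT1, the mitochondrial thiolase, serves ketone body metabolism and isoleucine breakdown. It was at 49.2, 46.7 and 45.9 TPM in PTC-028 and at 50.9, 51.0 and 53.9 TPM in DMSO. Every PTC-028 library was below every DMSO library, as in 10.6% of all genes tested. ACAT1 did not pass (log2 fold change -0.13; limma adjusted p = 0.304). The ratio of ACAT2 to ACAT1, which cancels any scaling of a library, was 1.99, 1.85 and 2.07 in PTC-028 and 2.39, 2.57 and 2.41 in DMSO. The groups of this ratio did not overlap, and the 2-sided exact permutation p was 0.10, the smallest that 3 against 3 libraries can give.

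HMGCS1, the cytosolic synthase that adds a further acetyl-CoA to make HMG-CoA (chromosome 5, 43289395 to 43313512), had 105, 112 and 108 TPM in PTC-028 and 116, 125 and 111 TPM in DMSO. PTC-028 replicate 2 was above DMSO replicate 3, so the groups overlapped. Its log2 fold change was -0.11 ± 0.06 (SE; limma adjusted p = 0.379), with an interval of -0.25 to 0.03. The ratio of ACAT2 to HMGCS1 was 0.931, 0.769 and 0.884 in PTC-028 and 1.05, 1.04 and 1.17 in DMSO, without overlap (exact permutation p = 0.10, again the smallest possible). All ratios given here were chosen after the values were seen, and 4 are given.

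**Figure D2:**
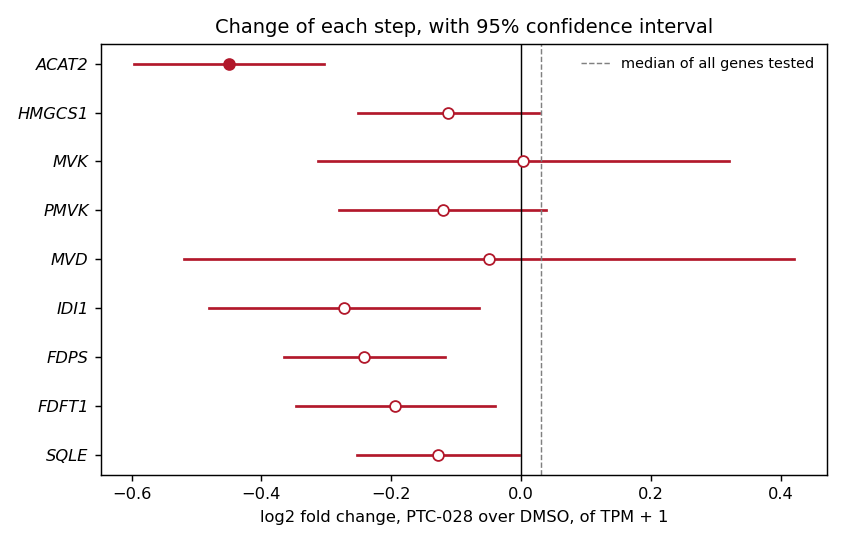
Log2 fold change of TPM + 1, PTC-028 over DMSO, for the 9 genes in pathway order, with 95% confidence intervals from limma; the filled point passed at an adjusted p under 0.05 and the dashed line is the median of all genes tested at 0.03. ACAT2 at -0.45 is the farthest from 0, and the intervals of IDI1, FDPS, FDFT1 and SQLE also lie below 0 before adjustment for the number of genes.

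The middle of the pathway holds the kinases MVK and PMVK, which phosphorylate mevalonate in turn, and MVD, the decarboxylase that forms isopentenyl diphosphate. MVK (chromosome 12, 109573255 to 109598117) had 23.6, 18.7 and 17.8 TPM in PTC-028 and 19.6, 17.3 and 23.1 TPM in DMSO. Its groups overlapped over almost their whole range, and its log2 fold change was 0.003 (limma adjusted p = 0.994), with an interval of -0.31 to 0.32 and a sign that turned to -0.12 without PTC-028 replicate 1 and was also negative on leaving out DMSO replicate 1 or DMSO replicate 2 and under median ratio scaling and quantile normalisation. MVK stands head to head with MMAB, a cobalamin enzyme gene, their starts 619 bases apart in GENCODE 29 with overlapping models. MMAB was at 66.9, 71.2 and 64.7 TPM in PTC-028 and at 68.3, 63.1 and 72.6 TPM in DMSO (limma adjusted p = 0.971).

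PMVK (chromosome 1, 154924734 to 154936991) had 37.7, 34.7 and 34.04 TPM in PTC-028 and 38.5, 37.3 and 40.2 TPM in DMSO. Only PTC-028 replicate 1 reached into the DMSO range, and the log2 fold change was -0.12 ± 0.07 (SE; limma adjusted p = 0.405). MVD (chromosome 16, 88651935 to 88663161) had 35.4, 24.1 and 20.6 TPM in PTC-028 and 32.4, 22.2 and 27.2 TPM in DMSO. It was the most variable of the 9, with a coefficient of variation of 29% in PTC-028 and 18.7% in DMSO, and its highest and lowest library were both in PTC-028. Its log2 fold change of -0.05 (limma adjusted p = 0.925) had an interval of -0.52 to 0.42, and its sign changed on leaving out PTC-028 replicate 2, PTC-028 replicate 3 or DMSO replicate 1. That interval includes the change of ACAT2. The ratio of MVD to MVK was 1.5, 1.29 and 1.16 in PTC-028 and 1.65, 1.28 and 1.18 in DMSO (exact permutation p = 0.7).

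IDI1 isomerises isopentenyl diphosphate to dimethylallyl diphosphate. The gene (chromosome 10, 1039152 to 1049170) had 60.5, 73.0 and 57.6 TPM in PTC-028 and 74.5, 76.2 and 79.7 TPM in DMSO. All PTC-028 libraries were lower, although PTC-028 replicate 2 lay close to DMSO replicate 1. The log2 fold change was -0.27 ± 0.09 (SE; limma adjusted p = 0.186; unadjusted p = 0.0166), with values between -0.37 and -0.21 when any 1 library was left out. WDR37, a gene that starts 368 bases away in the opposite direction, was at 12.9, 13.2 and 12.6 TPM in PTC-028 and at 10.1, 11.7 and 10.1 TPM in DMSO, higher in every PTC-028 library but without a call (limma adjusted p = 0.223). The related gene IDI2 was below the filter, at 0.102, 0.0499 and 0.0510 TPM in PTC-028 and at 0.168, 0.164 and 0.0950 TPM in DMSO.

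FDPS makes farnesyl diphosphate, the branch point of the pathway, and is the enzyme that nitrogen-containing bisphosphonates inhibit. The gene (chromosome 1, 155308748 to 155320666) had 271, 261 and 258 TPM in PTC-028 and 307, 296 and 333 TPM in DMSO. The groups did not overlap, and the PTC-028 libraries lay closer together, with a coefficient of variation of 2.57% against 6.10% in DMSO. The mean was 263 ± 6.76 TPM in PTC-028 and 312 ± 19.0 TPM in DMSO (SD, n = 3 each), or 84.4% of the DMSO level. The log2 fold change of -0.24 ± 0.05 missed the threshold (SE; limma adjusted p = 0.0761; 95% confidence interval -0.37 to -0.12) and stayed without a call under every alternative, with adjusted p between 0.0547 and 0.239. FDPS has processed copies in the genome, and 6 pseudogene rows named after it were in the table. None of the 6 exceeded 0.374 TPM in any library.

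FDFT1, squalene synthase, joins farnesyl diphosphate units and commits them to sterols. The gene (chromosome 8, 11795573 to 11839309) had 79.1, 68.1 and 72.1 TPM in PTC-028 and 85.8, 82.0 and 82.9 TPM in DMSO. The groups did not overlap, and the log2 fold change was -0.19 ± 0.07 (SE; limma adjusted p = 0.198). The ratio of FDPS to FDFT1, the enzymes on either side of the branch point, was 3.43, 3.83 and 3.58 in PTC-028 and 3.58, 3.61 and 4.01 in DMSO, and its groups overlapped (exact permutation p = 0.6). SQLE, squalene epoxidase, carries out the first oxygenation of sterol synthesis and is a further control point of the pathway. The gene (chromosome 8, 124998497 to 125022283) had 112, 119 and 111 TPM in PTC-028 and 122, 130 and 122 TPM in DMSO. Its groups were just apart, and there was no call (log2 fold change -0.13 ± 0.05, SE; limma adjusted p = 0.278).

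Exons of ACAT2, HMGCS1, IDI1, FDPS and FDFT1 also overlap those of non-coding genes on the opposite strand in GENCODE 29, by between 217 bases in FDFT1 and 1458 bases in ACAT2. Those genes were not analysed here. Before adjustment, 5 of the 9 pathway genes had a p under 0.05, as did 17.3% of all genes tested.

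**Figure D3:**
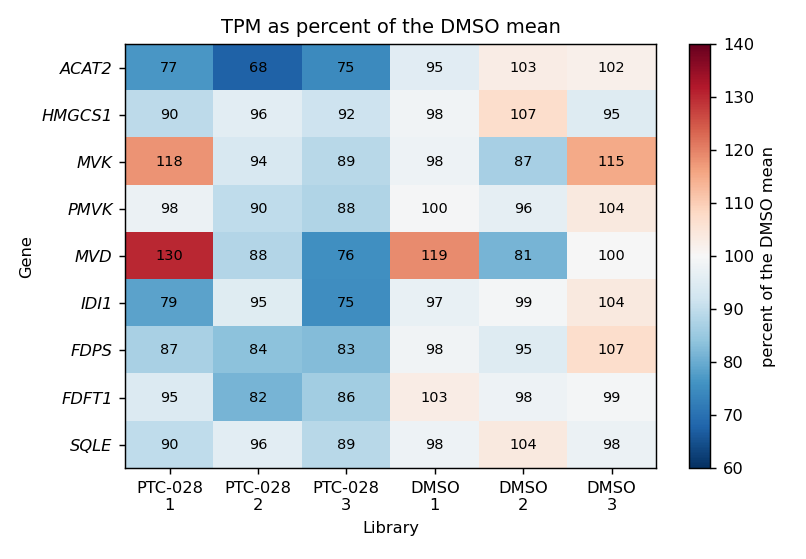
TPM of each pathway gene in each library as a percent of the mean of the 3 DMSO libraries, with PTC-028 libraries on the left and blue for values below 100. ACAT2 was at 67.8 to 76.8 percent and FDPS at 82.8 to 86.9 percent in PTC-028, while MVD ranged from 75.5 to 130 percent within PTC-028.

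Correlations between the genes were taken over both groups together. Over the 6 libraries, 32 of the 36 pairs of pathway genes had a Pearson correlation of log2(TPM + 1) above 0, with a median of 0.55. These correlations include the group difference given above, and variation within the groups was not separated from it. The libraries also share one scaling to a fixed total, so this is a description. The share of such pairs among all genes tested was not counted. FDPS and PMVK were most like the mean of the 9 standardised genes, each at 0.94, and MVK was least like it at 0.36. Each of the 9 is itself a part of that mean, which raises its correlation. Among other genes, those most like that mean included AC233724.10, AC055811.2 and GINS2, each at 0.994, followed by POLR3K at 0.987. GINS2 is a part of the replicative helicase and POLR3K a subunit of RNA polymerase III. GINS2 was at 13.8, 11.4 and 10.3 TPM in PTC-028 and at 17.6, 15.9 and 18.6 TPM in DMSO (limma adjusted p = 0.0852). In all, 276 tested genes outside the pathway reached a correlation of 0.9 over these 6 libraries.

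The steps from squalene to cholesterol were read from 11 genes, all tested. None passed in limma, and 3 had an unadjusted p under 0.05, as did 17.3% of all genes tested. The log2 fold change was below 0 in 9 of the 11, against 42.5% of all genes tested, with a median of -0.09. In those 3, EBP and NSDHL among them, every PTC-028 library was also below every DMSO library, a separation shown by 10.6% of all genes tested, and in TM7SF2 the reverse held; NSDHL and TM7SF2 are named after their values were seen. EBP, a sterol isomerase, was at 116, 98.6 and 105 TPM in PTC-028 and at 124, 118 and 129 TPM in DMSO (log2 fold change -0.22; limma adjusted p = 0.174).

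Of 7 genes that control SREBP, none passed in limma, INSIG1 alone had an unadjusted p under 0.05, and the median was -0.02. INSIG1, which holds SREBP in the endoplasmic reticulum and is itself an SREBP target, was at 33.4, 32.7 and 35.1 TPM in PTC-028 and at 39.4, 37.3 and 41.6 TPM in DMSO. These groups did not overlap, and there was no call (log2 fold change -0.22 ± 0.07, SE; limma adjusted p = 0.173). SREBF1 was at 27.4, 26.7 and 27.1 TPM in PTC-028 and at 28.6, 27.8 and 35.2 TPM in DMSO, also without overlap (log2 fold change -0.16; limma adjusted p = 0.432). Of the 7 genes, 2 separated downwards and 0 upwards, as did 10.6% and 13.4% of all genes tested. SREBF2, which encodes SREBP-2 and is named here after its values were seen, was at 106, 96.6 and 98.4 TPM in PTC-028 and at 96.6, 101 and 102 TPM in DMSO (log2 fold change 0.01; limma adjusted p = 0.964).

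In the list of cholesterol uptake, transport and efflux, 11 of 13 genes were tested and none passed in limma (0 had an unadjusted p under 0.05; median -0.002). In 3 of the 11, LIPA and, named after their values were seen, NPC1 and MYLIP, every PTC-028 library was above every DMSO library, a separation shown upwards by 13.4% of all genes tested. LIPA, the lysosomal lipase that frees cholesterol from its esters, was at 25.7, 23.3 and 28.6 TPM in PTC-028 and at 22.1, 23.1 and 21.4 TPM in DMSO (log2 fold change 0.21; limma adjusted p = 0.290). TMEM97, which binds the transporter NPC1, was at 90.0, 85.4 and 94.8 TPM in PTC-028 and at 99.4, 114 and 92.7 TPM in DMSO (log2 fold change -0.17; limma adjusted p = 0.327).

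The isoprenoid branches leave the pathway mostly at farnesyl diphosphate, and none of their 17 genes passed in limma (median -0.02). RABGGTB, PDSS1 and, named after its value was seen, ICMT had an unadjusted limma p under 0.05, as did 17.3% of all genes tested. RABGGTB, the catalytic subunit that prenylates Rab proteins, was at 132, 135 and 129.8 TPM in PTC-028 and at 113, 121 and 116 TPM in DMSO (log2 fold change 0.18; limma adjusted p = 0.131). PDSS1, which builds the tail of ubiquinone, was at 18.6, 18.4 and 18.3 TPM in PTC-028 and at 21.6, 20.9 and 21.8 TPM in DMSO (log2 fold change -0.20; limma adjusted p = 0.198). The groups of RABGGTB and PDSS1 did not overlap, in opposite directions. Of the 17 genes, 3 separated upwards and 2 downwards, as did 13.4% and 10.6% of all genes tested.

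Of 8 genes of acetyl-CoA supply and fatty acid synthesis, none passed in limma, 0 had an unadjusted p under 0.05 and the median was 0.08. Fatty acid synthesis competes for acetyl-CoA and is mainly driven by SREBP-1. ACSS2, which makes acetyl-CoA from acetate, was at 13.9, 16.6 and 17.01 TPM in PTC-028 and at 14.8, 9.46 and 14.5 TPM in DMSO (log2 fold change 0.29; limma adjusted p = 0.412). FASN, fatty acid synthase, was at 480, 497 and 435 TPM in PTC-028 and at 381, 443 and 462 TPM in DMSO (log2 fold change 0.14; limma adjusted p = 0.421).

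**Figure D4:**
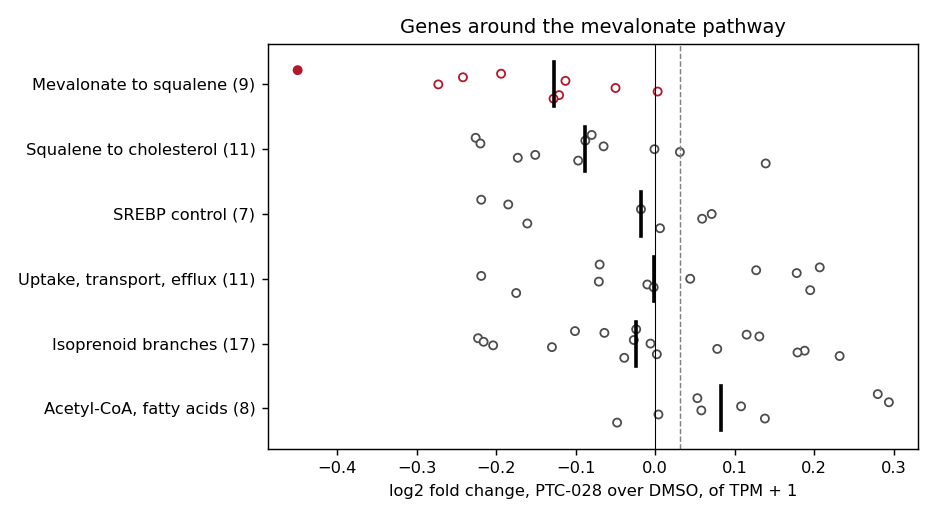
Log2 fold change of TPM + 1, PTC-028 over DMSO, for each tested gene of the pathway (red) and of 5 surrounding gene lists (grey), with the number tested in brackets; black bars are list medians, filled points passed at an adjusted p under 0.05 and the dashed line is the median of all genes tested. The medians run from -0.13 for the 9 pathway genes to 0.08 for acetyl-CoA and fatty acid genes, and the 1 filled point is ACAT2.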

How the data were processed

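Poly(A)-selected RNA of 6 IMR-32 libraries was sequenced, per the labels' protocols. The authors deposited 1 table of TPM per gene, and it was used without further scaling. Per the submitters' processing notes the build is GRCh38; for the aligner, the quantifier and the annotation: not given in the sources used here. The filter asked for 1 TPM or more in 3 or more of the 6 libraries and left 13836 genes. These were fitted with limma (version 3.58.1, R 4.3.3) to log2(TPM + 1) by treatment, using eBayes with trend, 2-sided tests and the Benjamini-Hochberg method across the 13836. The fit was tested on simulated data. The added 1 shrinks the fold changes of low genes. Coordinates and overlaps came from GENCODE 29 by identifier, promoters from RefSeq. Where rows shared a symbol (LSS, ACACA and PTPRC among the list genes), the row with the highest mean TPM was read.

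The 9 genes and the other lists were chosen with earlier results of these data known. Named genes are the 9 genes, CDKN1A, the 2 genes with the smallest p of each other list (up to 4 where at least 2 passed), overlapping, head-to-head and pseudogene rows, and the 5 genes most like the mean of the 9. Some genes that this rule takes are not reported here. Alternatives changed the pseudocount (0.1 and 5), the filter (none, or a minimum TPM of 5), the scaling (median ratio, quantile), the eBayes trend, the replicate number as a block, or left out each library in turn with the same genes tested. The labels name no batch. TPM keeps no depth, so no counting interval is given.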

Additional observations from a re-analysis of the deposited data

How the results depend on the processing

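Over all genes, 260 were called in the main comparison. Separate fits called 138 over all 23555 rows without a filter on low values, 310 with a minimum TPM of 5, 131 without the eBayes trend, 62 with the replicate block, and between 67 and 204 with any 1 library left out; how many of these genes are among the 260 was not counted. Of the 9 pathway genes, the 1 called lower became 0 without the eBayes trend, with the replicate block, and on leaving out PTC-028 replicate 2, PTC-028 replicate 3 or DMSO replicate 1, giving 0 to 1 with any 1 library left out; the number called higher was 0 in the main comparison and under all 14 alternatives. With the replicate block ACAT2 had an adjusted p of 0.0845. Same-numbered libraries did not deviate together (correlations of their deviations from the group means of 0.03, -0.03 and -0.10), and 1 of 3 PTC-028 libraries correlated best with its own number, so the numbers were not taken to pair the libraries. The median log2 fold change of the 9 lay between -0.24 and -0.11 with any 1 library left out and between -0.16 and -0.12 under the other alternatives. MVK was at -0.024 under median ratio scaling, -0.044 under quantile normalisation and between -0.12 and 0.11 with a library left out. MVD lay between -0.27 and 0.11 with a library left out. The cause of these differences was not tested. The read depth that limits each value is unknown.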

Other observations

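Cholesterol efflux genes lay below the level at which genes were tested. ABCA1, which loads cholesterol onto lipoproteins, was at 0.252, 0.322 and 0.165 TPM in PTC-028 and at 0.0194, 0.0398 and 0.0524 TPM in DMSO. Every PTC-028 library was above every DMSO library, at levels under 1 TPM. In the fit without a filter, over 23555 rows, it was not called (log2 fold change 0.26 ± 0.06, SE, n = 3 each; limma adjusted p = 0.160). ABCG1, a related transporter, was at 0.9502, 0.435 and 0.474 TPM in PTC-028 and at 0.229, 0.393 and 0.518 TPM in DMSO, with overlapping groups (limma adjusted p = 0.624 in the same fit). ABCA1 is named here after its values were seen.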
